A study of Homo sapiens with 18 samples.

Results

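HIF1A and 9 non-glycolytic genes known to be induced by hypoxia, namely VEGFA, KDM3A, BNIP3, BNIP3L, P4HA1, P4HA2, EGLN1, ANKRD37 and ADM, were followed in RNA-seq of 3 human lymphoma lines. The 10 genes were listed by symbol as hypoxia-inducible genes outside glycolysis. They and the lists used below were chosen with earlier results of these data known. Their counts beside all genes are therefore descriptive and are no independent test. All 10 members had a row among the 23250 gene symbols of the files. Of these, 9 reached 1 CPM (reads scaled to the size of the whole library) in at least 3 of the 18 libraries and were tested together with 12769 genes in all. ADM did not reach that level and is given by its reads.

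SUDHL6, Farage and SUDHL4 are established lines of diffuse large B cell lymphoma, a tumour of mature B cells. Each line was given either the vehicle DMSO or 79-6.1085, an inhibitor of the transcriptional repressor BCL6, at 10 µM, for 12 h in both arms, with 3 libraries per group and 6 groups. No genetic change beyond those the lines carry is named in the labels, and each line stands for 1 tumour, with no non-tumour cells among the groups. The labels give no oxygen level and do not say whether replicates were separate cultures, so p-values measure only how far these samples scatter, and that scatter may be technical.

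HIF1A encodes the oxygen-regulated subunit of hypoxia-inducible factor 1, a transcription factor that pairs with ARNT. In oxygen, prolyl hydroxylases such as EGLN1 mark HIF1A protein, the VHL ubiquitin ligase binds the marked protein, and the proteasome degrades it. When oxygen is low the protein persists and binds hypoxia response elements, whose core reads ACGTG or GCGTG, near genes for blood vessel growth, mitochondrial turnover, collagen modification and glycolysis. The amount of HIF1A protein is set mainly by this turnover, which these RNA measurements do not read, and other factors also act on several of these genes.

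The 250 bases before the annotated start of 5 members are shown to place the core letters that the family is known for, because ANKRD37, BNIP3, P4HA1 and EGLN1 hold the ACGTG form and P4HA2 holds neither form. They are RefSeq sequences of GRCh38.p14, a later build than the hg19 used by the authors, and are written 5′ to 3′ on the strand of the gene, with each ACGTG or GCGTG in either orientation (CACGT or CACGC where it lies on the other strand) in capitals. ANKRD37 lies at chr4:185396591-185396840 on the plus strand, BNIP3 at chr10:131981924-131982173 on the minus strand, P4HA1 at chr10:73096867-73097116 on the minus strand, EGLN1 at chr1:231422288-231422537 on the minus strand and P4HA2 at chr5:132227092-132227341 on the minus strand.
ANKRD37: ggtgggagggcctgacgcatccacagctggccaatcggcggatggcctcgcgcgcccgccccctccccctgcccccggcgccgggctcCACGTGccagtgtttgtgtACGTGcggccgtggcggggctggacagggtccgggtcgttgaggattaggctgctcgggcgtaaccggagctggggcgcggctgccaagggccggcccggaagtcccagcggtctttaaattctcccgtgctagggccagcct
BNIP3: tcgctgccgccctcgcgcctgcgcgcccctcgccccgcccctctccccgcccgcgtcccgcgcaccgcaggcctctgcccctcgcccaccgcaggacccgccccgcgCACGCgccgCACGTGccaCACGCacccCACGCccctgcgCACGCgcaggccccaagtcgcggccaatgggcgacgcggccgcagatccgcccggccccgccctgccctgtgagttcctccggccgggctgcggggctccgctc
P4HA1: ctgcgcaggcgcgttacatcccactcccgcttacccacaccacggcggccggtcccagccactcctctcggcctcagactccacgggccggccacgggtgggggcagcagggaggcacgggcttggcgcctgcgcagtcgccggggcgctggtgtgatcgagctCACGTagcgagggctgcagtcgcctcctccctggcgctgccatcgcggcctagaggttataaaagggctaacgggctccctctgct
EGLN1: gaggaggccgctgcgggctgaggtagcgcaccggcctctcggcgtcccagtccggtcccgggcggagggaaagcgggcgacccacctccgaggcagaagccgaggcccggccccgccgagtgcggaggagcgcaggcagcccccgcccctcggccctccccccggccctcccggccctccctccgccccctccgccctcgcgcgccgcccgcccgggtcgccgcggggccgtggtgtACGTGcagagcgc
P4HA2: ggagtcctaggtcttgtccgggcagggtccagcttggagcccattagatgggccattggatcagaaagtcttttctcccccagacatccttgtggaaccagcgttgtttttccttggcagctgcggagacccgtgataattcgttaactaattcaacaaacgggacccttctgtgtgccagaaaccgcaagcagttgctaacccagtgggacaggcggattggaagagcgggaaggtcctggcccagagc
In ANKRD37 the letters CACGTG, a palindrome that holds ACGTG on both strands, end at position -157 from the start, and a separate ACGTG spans positions -143 to -139. BNIP3 held 6 cores, of which 2 are the strands of 1 CACGTG and 4 are CACGC. P4HA1 held CACGT at positions -86 to -82, and EGLN1 held ACGTG at positions -13 to -9. RefSeq promoter entries of 300 bases (250 before to 50 after the start) were found for 8 of the 10 members, 10 entries in all, and either core occurred in 8 of the 10. The same cores occurred in 48.4% of all 35116 entries and in 60.3% of the 13095 entries of tested genes, and ACGTG alone in 4 of the members' 10 entries, 21.4% of all entries and 25.2% of those of tested genes. ADM, KDM3A and 1 of the HIF1A entries held GCGTG only. A match of letters is a description of the sequence and is not evidence of binding.

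Before the gene values, the libraries need a short account. Reads in listed genes numbered 6.29 to 25.5 M per library, and replicate 3 of both SUDHL6 groups was the shallowest, at 7.36 M with DMSO and 6.29 M with the inhibitor. A count of 3 reads equals 0.362 CPM at the lowest depth. All 8 B cell markers reached 1 CPM in every group, but their summed level was lower with the inhibitor: 7544 to 7946 CPM became 3404 to 4737 in SUDHL6, 4293 to 4464 became 2406 to 2543 in Farage, and 10320 to 10780 became 8180 to 8699 in SUDHL4. Summed levels of 6 T cell, 6 myeloid and 6 endothelial markers stayed at or below 3.50 CPM in every library, while the fibroblast list reached 59.1 to 66.6 CPM in SUDHL4 with DMSO and 17.4 to 20.5 CPM with the inhibitor with nearly all of it from DCN. The part of these marker shifts in the members' changes was not tested. In bulk RNA, fewer cells of a type and less RNA per cell cannot be told apart. DMSO replicate 3 of SUDHL4 stood apart from its partners: of 986 genes at least 2-fold higher with the inhibitor than in DMSO replicates 1 and 2, it lay on the inhibitor's side for 98.9%, with a median of 14.2% of the way. Of 2654 genes at least 2-fold lower it lay on that side for 95.7%, with a median of 18.7%. SUDHL4 results are therefore also given without it where that changes a call or moves a called value by over 1.5 times.

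All 9 tested members were higher with the inhibitor in the mean of the 3 lines, by 0.29 to 2.71 on the log2(CPM + 1) scale, against a median of -0.24 over all genes. Of all tested genes, 30.1% were called higher in that mean and 53.8% lower. A call means an adjusted p under 0.05 in limma's moderated test with Benjamini-Hochberg adjustment over all 12769 genes, and the pseudocount of 1 makes the change of weakly expressed genes look smaller. In SUDHL6 7 of 9 members rose and none fell, where 26.8% of all genes were called higher and 41.3% lower. In Farage 8 of 9 rose and none fell, against 25.4% of genes called higher and 46.5% lower. In SUDHL4 9 of 9 rose, against 24.3% higher and 46.2% lower. The members' median response was 0.70 in SUDHL6, 2.12 in Farage and 2.16 in SUDHL4, beside -0.13, -0.22 and -0.21 for all genes. Without replicate 3 of both SUDHL6 groups the calls numbered 9 in the mean, 7 in SUDHL6, 9 in Farage (8 higher and HIF1A lower) and 9 in SUDHL4, and without DMSO replicate 3 of SUDHL4 all 9 stayed called in that line.

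Because more genes were called lower than higher in CPM, the scale matters for small changes. After median-of-ratios scaling the all-gene median of the mean response moved from -0.24 to -0.05, and the share of calls that were higher moved from 35.85% to 47.05%. The members' counts of calls stayed at 9, 7, 8 and 9 in the mean, SUDHL6, Farage and SUDHL4 under that scaling. Of all genes, 39.4%, 33.1%, 33.6% and 34.3% were then called higher, and 44.4%, 34.8%, 37.2% and 36.1% lower. Among the members' responses to the inhibitor the sign changed in 1 case, HIF1A in Farage, described next.

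**Figure D1:**
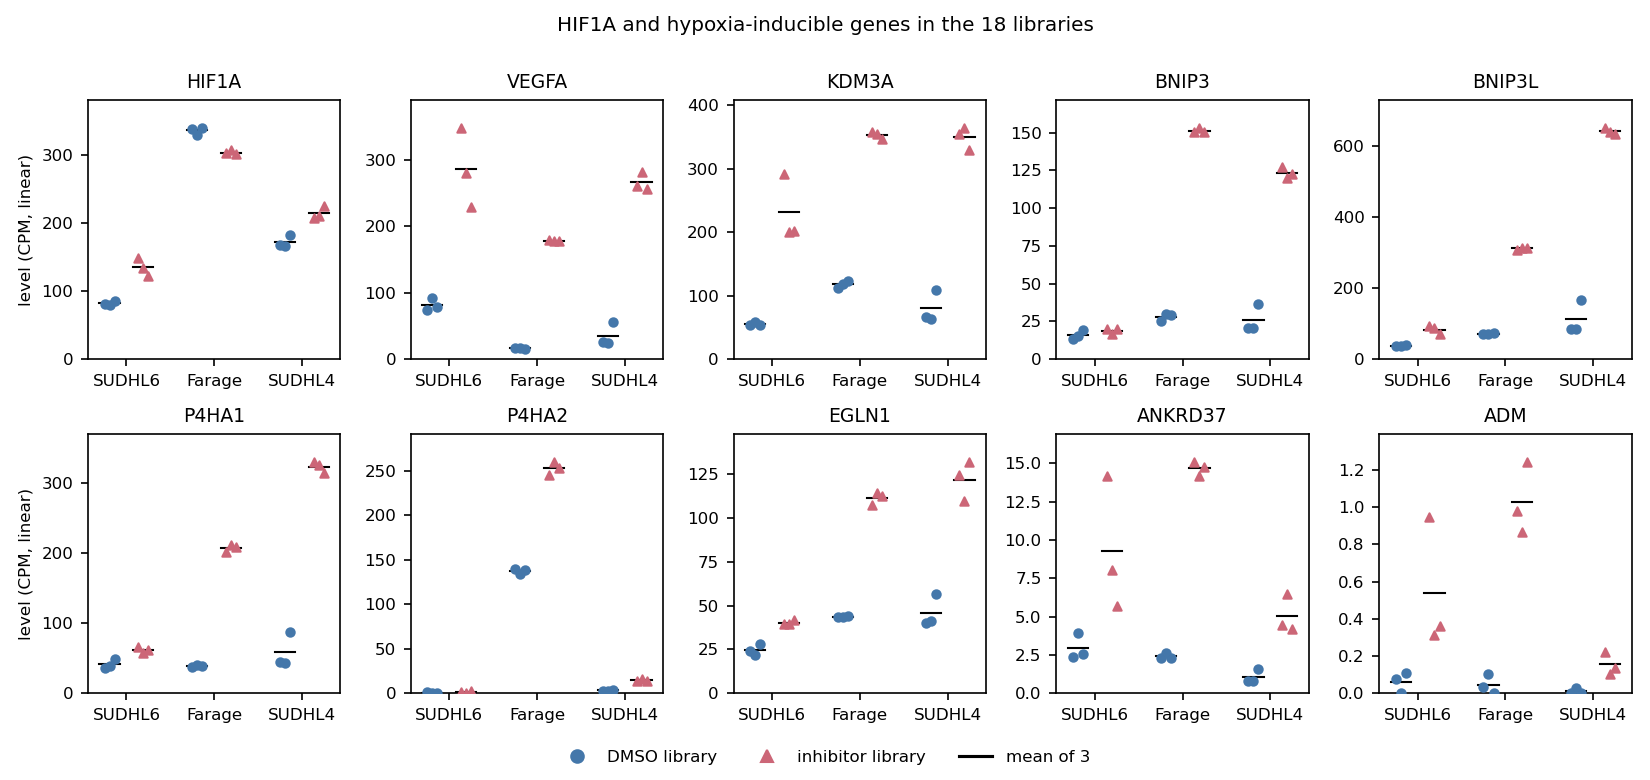
Level of each of the 10 genes in CPM (linear axis from 0, 1 panel per gene) in the 18 libraries, with DMSO libraries as blue circles, inhibitor libraries as red triangles and the mean of 3 as a black bar. VEGFA, KDM3A and BNIP3L separated the treatments in all 3 lines, HIF1A lay slightly lower with the inhibitor in Farage on this scale (its sign turned after rescaling), and BNIP3 and P4HA2 overlapped in SUDHL6.

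HIF1A itself, the oxygen-regulated subunit, changed least among the tested members in the mean of the lines. In SUDHL6 its level was 81.2, 80.2 and 86.2 CPM in DMSO replicates 1, 2 and 3 and 149, 134 and 123 CPM in the inhibitor replicates. In SUDHL4 it was 168, 167 and 182 CPM with DMSO and 208, 210 and 225 CPM with the inhibitor. In Farage it was 339, 330 and 341 CPM with DMSO and 303, 307 and 303 CPM with the inhibitor. The treated libraries were the higher ones in SUDHL6 and SUDHL4 and the lower ones in Farage, with no overlap in any line. HIF1A rose by 0.70 ± 0.07 (log2, SE of the model; adjusted p = 1.86e-07) in SUDHL6 and by 0.32 ± 0.07 (adjusted p = 0.000587) in SUDHL4, where median-of-ratios scaling gave 0.62 (adjusted p = 6.47e-06). The Farage change of -0.15 ± 0.07 did not pass (adjusted p = 0.0669). It passed with Farage alone in the fit (adjusted p = 0.00328), and without inhibitor replicate 1 or 3 of SUDHL6 (adjusted p = 0.0326 and 0.0391). Its sign turned under median-of-ratios scaling (0.10), edgeR (0.10) and DESeq2 (0.11), with adjusted p of 0.269 to 0.363. HIF1A thus has no direction in Farage that holds across scalings.

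The HIF1A response was larger in SUDHL6 than in Farage by 0.85 ± 0.10 (adjusted p = 5.56e-06) and larger in SUDHL4 than in Farage by 0.46 ± 0.10 (adjusted p = 0.00135). SUDHL6 exceeded SUDHL4 by 0.39 ± 0.10 (adjusted p = 0.00568), a call lost in edgeR (0.28, adjusted p = 0.118), in DESeq2 (0.28, adjusted p = 0.0824) and after median-of-ratios scaling (0.26, adjusted p = 0.101). With DMSO, HIF1A was highest in Farage (337 ± 5.55 CPM, SD, n = 3), then SUDHL4 (172 ± 8.70) and SUDHL6 (82.6 ± 3.20). Each step of that order passed: Farage exceeded SUDHL4 by 0.96 and SUDHL4 exceeded SUDHL6, whose difference was -1.05 (adjusted p = 1.65e-09 and 8.31e-10). The treated means of 304 ± 2.62, 215 ± 9.17 and 135 ± 13.0 CPM kept the same order of lines.

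EGLN1, the prolyl hydroxylase that marks HIF1A for degradation and is itself induced by HIF, was higher with the inhibitor in each line. In SUDHL6 it was at 24.4, 21.9 and 28.3 CPM with DMSO and at 39.6, 39.4 and 41.6 CPM with the inhibitor. Farage had 43.3, 43.7 and 44.2 CPM with DMSO and 107, 114 and 112 CPM with the inhibitor. SUDHL4 had 40.2, 41.4 and 56.5 CPM with DMSO and 124, 109 and 132 CPM with the inhibitor. No treated library overlapped a DMSO library of its line, and DMSO replicate 3 of SUDHL4 was the highest of its group. EGLN1 rose by 0.68 ± 0.11 in SUDHL6 (adjusted p = 5.94e-05), 1.33 ± 0.11 in Farage (adjusted p = 3.23e-08) and 1.40 ± 0.11 in SUDHL4 (adjusted p = 1.73e-08). The rise in SUDHL6 was smaller than in Farage (difference -0.65 ± 0.16, adjusted p = 0.00488) and than in SUDHL4 (difference -0.72 ± 0.16, adjusted p = 0.00270).

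VEGFA, the secreted factor that drives blood vessel growth, had the largest mean response of the members. SUDHL6 libraries held 74.5, 91.9 and 78.1 CPM with DMSO and 348, 280 and 228 CPM with the inhibitor. Farage libraries held 17.0, 17.5 and 15.4 CPM with DMSO and 179, 178 and 178 CPM with the inhibitor. SUDHL4 libraries held 25.5, 23.9 and 56.3 CPM with DMSO and 261, 281 and 256 CPM with the inhibitor. Treated libraries lay above the DMSO libraries in each line, and the treated levels of the lines were closer to each other in ratio than the DMSO levels were. The ratio of mean CPM was 3.50 in SUDHL6, 10.7 in Farage and 7.56 in SUDHL4. On the log2 scale VEGFA rose by 1.78 ± 0.22 (adjusted p = 3.01e-06), 3.35 ± 0.22 (adjusted p = 2.25e-09) and 2.99 ± 0.22 (adjusted p = 7.04e-09) in these lines.

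The VEGFA rise was smaller in SUDHL6 than in Farage by a difference of -1.57 ± 0.32 (adjusted p = 0.00111) and than in SUDHL4 by -1.21 ± 0.32 (adjusted p = 0.00752). SUDHL4 and Farage differed by -0.36, with a 95% interval of -1.03 to 0.32 (adjusted p = 0.410), and this value became 0.03 without DMSO replicate 3 of SUDHL4. With DMSO, VEGFA was highest in SUDHL6 (81.5 ± 9.20 CPM, SD, n = 3), then SUDHL4 (35.2 ± 18.3) and Farage (16.6 ± 1.10). SUDHL6 exceeded SUDHL4 by 1.29 ± 0.22 (adjusted p = 8.11e-05), and Farage differed from SUDHL4 by -0.93 ± 0.22 (adjusted p = 0.00159), or by -0.54 (adjusted p = 0.00211) without DMSO replicate 3 of SUDHL4.

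ADM encodes adrenomedullin, a secreted peptide that widens blood vessels, and it was near the detection limit. SUDHL6 had 2, 0 and 1 reads with DMSO and 22, 7 and 3 with the inhibitor. Farage had 1, 3 and 0 reads with DMSO and 30, 23 and 37 with the inhibitor. SUDHL4 had 0, 1 and 0 reads with DMSO and 6, 3 and 3 with the inhibitor. Treated libraries held more ADM reads than the DMSO libraries of their line, yet the counts are small. With reads pooled over each group, the ratio of CPM was 12.2 in SUDHL6 (95% exact interval 3.82 to 62.2), 22.4 in Farage (8.44 to 83.9) and 13.9 in SUDHL4 (2.05 to 593). These intervals cover counting error only. In limma without the expression filter ADM was higher in SUDHL6 (0.51, adjusted p = 0.00122) and Farage (0.95, adjusted p = 3.32e-06), while SUDHL4 did not pass (0.19, adjusted p = 0.185).

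KDM3A, a demethylase that removes methyl groups from lysine 9 of histone H3, rose in all 3 lines. In SUDHL6 it was at 53.3, 58.5 and 53.8 CPM with DMSO and at 291, 200.2 and 202 CPM with the inhibitor. Farage libraries lay at 112, 119 and 123 CPM with DMSO and at 358, 355 and 348 CPM with the inhibitor. SUDHL4 libraries lay at 66.5, 63.9 and 109 CPM with DMSO and at 355, 364 and 329 CPM with the inhibitor. The treatments did not overlap in any line, and inhibitor replicate 1 of SUDHL6 was well above its partners. KDM3A rose by 2.03 ± 0.16 (adjusted p = 2.53e-08) in SUDHL6, 1.58 ± 0.16 (adjusted p = 2.66e-07) in Farage and 2.16 ± 0.16 (adjusted p = 7.53e-09) in SUDHL4. None of the 3 differences between lines passed in the fit of all libraries. SUDHL4 exceeded Farage by 0.58, with a 95% interval of 0.10 to 1.07 (adjusted p = 0.0570), which became 0.83 (adjusted p = 0.00112) without DMSO replicate 3 of SUDHL4 and passed without inhibitor replicate 1 or 3 of SUDHL6 (adjusted p = 0.0234 and 0.0492). SUDHL6 exceeded Farage by 0.45 (95% interval -0.04 to 0.94, adjusted p = 0.138), a difference that passed when DMSO replicate 3 of SUDHL4 was left out of the shared spread (adjusted p = 0.0337). SUDHL6 and SUDHL4 differed by -0.13, with a 95% interval of -0.62 to 0.36.

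BNIP3 and BNIP3L encode related proteins of the outer mitochondrial membrane that recruit the autophagy machinery to mitochondria, and they parted in SUDHL6. BNIP3 in SUDHL6 was at 13.6, 15.1 and 19.5 CPM with DMSO and at 20.2, 16.9 and 19.7 CPM with the inhibitor. In Farage it was at 25.1, 30.0 and 29.3 CPM with DMSO and at 150.2, 153 and 151 CPM with the inhibitor. In SUDHL4 it was at 20.6, 20.6 and 36.3 CPM with DMSO and at 127, 120.1 and 123 CPM with the inhibitor. BNIP3 values overlapped between the treatments in SUDHL6 and lay far apart in the other lines. Its SUDHL6 change of 0.23 did not pass (95% interval -0.12 to 0.59, adjusted p = 0.231), which bounds the rise there well below the 2.39 ± 0.17 of Farage (adjusted p = 3.62e-09) and the 2.26 ± 0.17 of SUDHL4 (adjusted p = 6.32e-09). The difference itself was -2.16 ± 0.24 against Farage (adjusted p = 3.77e-06) and -2.03 ± 0.24 against SUDHL4 (adjusted p = 1.06e-05).

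BNIP3L rose in all lines. It was at 37.4, 37.0 and 40.5 CPM with DMSO and at 92.8, 87.6 and 70.3 CPM with the inhibitor in SUDHL6. Farage moved from 70.6, 70.3 and 72.9 CPM to 309, 313 and 314 CPM. SUDHL4 moved from 85.8, 84.0 and 168 CPM to 652, 640 and 634 CPM. Each treated library was above each DMSO library of its line, also above the raised DMSO replicate 3 of SUDHL4. The rises were 1.10 ± 0.18 (adjusted p = 4.87e-05), 2.12 ± 0.18 (adjusted p = 3.03e-08) and 2.58 ± 0.18 (adjusted p = 3.24e-09). The SUDHL6 rise was smaller than that of Farage (difference -1.02 ± 0.26, adjusted p = 0.00517) and of SUDHL4 (difference -1.48 ± 0.26, adjusted p = 0.000338). SUDHL4 against Farage gave 0.47 (95% interval -0.08 to 1.01, adjusted p = 0.168), and 0.79 (adjusted p = 0.000139) without DMSO replicate 3 of SUDHL4.

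P4HA1 and P4HA2 are catalytic subunits of the collagen prolyl hydroxylases, which hydroxylate proline in newly made collagen. P4HA1 in SUDHL6 was at 36.4, 39.0 and 49.8 CPM with DMSO and at 66.4, 57.3 and 61.8 CPM with the inhibitor. Farage went from 37.8, 39.9 and 38.6 CPM to 202, 212 and 210 CPM. SUDHL4 went from 45.4, 43.8 and 87.1 CPM to 330, 326 and 314 CPM. The treatments did not overlap, but the gap in SUDHL6 was narrow, since DMSO replicate 3 lay close to the treated values. P4HA1 rose by 0.57 ± 0.18 in SUDHL6 (adjusted p = 0.0111), a call lost without DMSO replicate 1 of that line (0.48, adjusted p = 0.0505). It rose by 2.39 ± 0.18 in Farage (adjusted p = 8.68e-09) and by 2.52 ± 0.18 in SUDHL4 (adjusted p = 4.66e-09). The SUDHL6 rise was smaller by -1.82 ± 0.26 than in Farage (adjusted p = 4.58e-05) and by -1.95 ± 0.26 than in SUDHL4 (adjusted p = 3.20e-05).

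P4HA2 separated the lines more than the treatments did. With DMSO it was at 1.31, 0.60 and 0.86 CPM in SUDHL6, at 140, 134 and 138 CPM in Farage and at 3.10, 2.98 and 4.25 CPM in SUDHL4. With the inhibitor it was at 1.33, 0.67 and 2.42 CPM in SUDHL6, at 245, 260 and 253 CPM in Farage and at 13.8, 16.3 and 13.7 CPM in SUDHL4. Farage exceeded SUDHL6 by 6.18 and SUDHL4 by 4.97 on the log2 scale in DMSO (adjusted p = 2.87e-14 and 5.74e-13), and only SUDHL6 overlapped between treatments. P4HA2 rose by 0.87 ± 0.20 in Farage (adjusted p = 0.000830) and by 1.82 ± 0.20 in SUDHL4 (adjusted p = 4.19e-07). Its SUDHL6 change was 0.32 (95% interval -0.10 to 0.73, adjusted p = 0.167), and it rests on single libraries: it was 0.57 (adjusted p = 0.00767) without inhibitor replicate 2 and 0.052 (adjusted p = 0.807) without inhibitor replicate 3. The SUDHL4 rise exceeded that of Farage by 0.95 ± 0.28 (adjusted p = 0.0136) and the SUDHL6 change fell short of SUDHL4 by a difference of -1.50 ± 0.28 (adjusted p = 0.000634). SUDHL6 against Farage gave -0.56 (95% interval -1.15 to 0.03, adjusted p = 0.131), and ran from -0.82 (adjusted p = 0.00745) without inhibitor replicate 3 of SUDHL6 to -0.30 (adjusted p = 0.324) without inhibitor replicate 2. The ratios of mean CPM were 1.59 in SUDHL6, 1.84 in Farage and 4.24 in SUDHL4. The pseudocount shrinks the P4HA2 change most in SUDHL6, where its level was lowest.

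ANKRD37, a small ankyrin repeat protein known mainly as a hypoxia-induced gene, was weakly expressed with DMSO. In SUDHL6 it was at 2.39, 3.96 and 2.57 CPM with DMSO and at 14.2, 8.04 and 5.68 CPM with the inhibitor. Farage had 2.34, 2.66 and 2.31 CPM with DMSO and 15.1, 14.2 and 14.8 CPM with the inhibitor. SUDHL4 had 0.80, 0.82 and 1.57 CPM with DMSO and 4.46, 6.48 and 4.21 CPM with the inhibitor. Treated libraries lay above DMSO libraries in each line, and the treated SUDHL6 libraries were the most scattered. ANKRD37 rose by 1.31 ± 0.24 (adjusted p = 0.000136), 2.19 ± 0.24 (adjusted p = 5.07e-07) and 1.55 ± 0.24 (adjusted p = 2.14e-05) in SUDHL6, Farage and SUDHL4. The difference of SUDHL6 from Farage was -0.88 (95% interval -1.60 to -0.16, adjusted p = 0.0522) and passed without inhibitor replicate 1 of SUDHL6 (-1.20, adjusted p = 0.00216) and, narrowly, under median-of-ratios scaling (-0.96, adjusted p = 0.0433). SUDHL4 against Farage gave -0.64 (95% interval -1.35 to 0.08, adjusted p = 0.154), which passed with only these lines in the fit (adjusted p = 0.0150). The ratios of mean CPM were 4.7 in SUDHL4 and 6.0 in Farage. The pseudocount shrinks the rise more in SUDHL4, where ANKRD37 was lower, so it enlarges this difference. The annotation overlaps ANKRD37 with LRP2BP and UFSP2, BNIP3 with PPP2R2D, and HIF1A, P4HA2 and EGLN1 with non-coding genes. The strand setting of the counting is not given in the sources used here, so reads of such partners cannot be told apart.

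**Figure D2:**
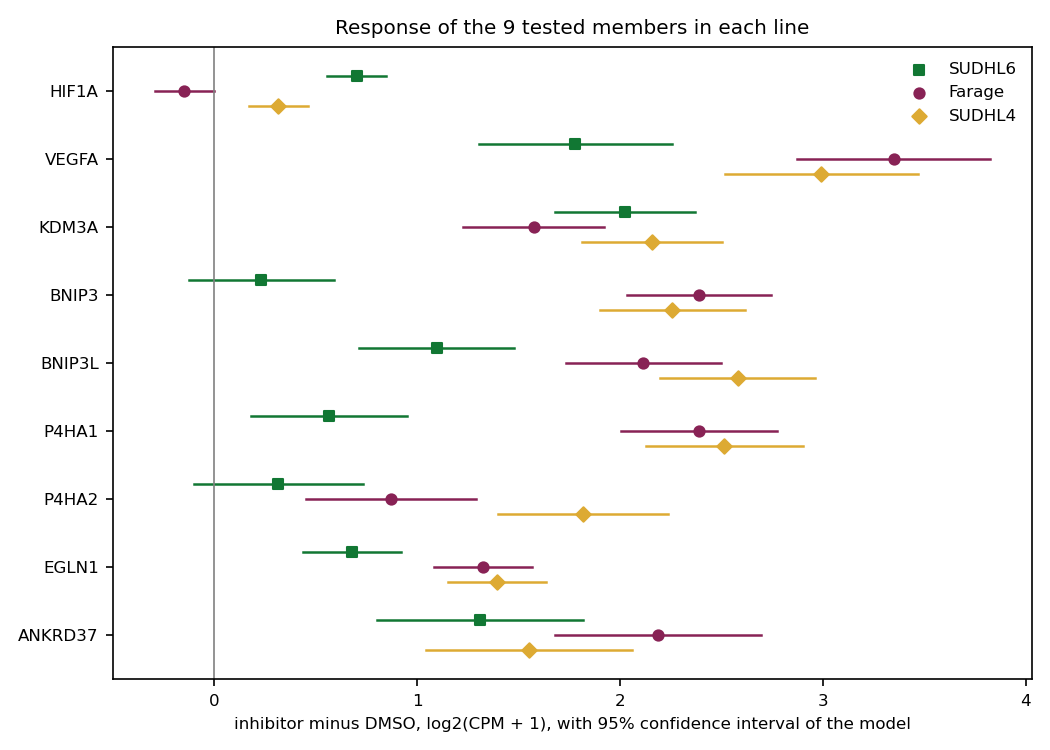
Inhibitor minus DMSO on the log2(CPM + 1) scale for the 9 tested members, with green squares for SUDHL6, purple circles for Farage, yellow diamonds for SUDHL4 and bars for the 95% confidence interval of the model. The SUDHL6 squares lie left of the other lines for VEGFA, BNIP3, BNIP3L, P4HA1, P4HA2, EGLN1 and ANKRD37 and right of them for HIF1A. Not all of the gaps for P4HA2 and ANKRD37 passed.

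Across the members, the lines differed in which genes responded most. Between SUDHL6 and Farage the response of 6 of 9 members differed, 1 larger in SUDHL6 (HIF1A) and 5 smaller, where 36.8% of all tested genes differed in either direction. Between SUDHL6 and SUDHL4 it was 7 of 9, 1 larger (HIF1A) and 6 smaller, against 35.0% of all genes. The HIF1A call between these lines was lost in edgeR, in DESeq2 and after median-of-ratios scaling, while the 6 smaller ones stayed called. Between SUDHL4 and Farage 2 of 9 differed, HIF1A and P4HA2, both larger in SUDHL4, against 37.4% of all genes. That last count became 5 without DMSO replicate 3 of SUDHL4, with KDM3A, BNIP3L and P4HA1 added, where 35.6% of all genes differed. With only the compared lines in the fit it was 4, where 56.9% of all genes differed. The comparisons of a line with each of the others share that line's libraries.

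Lines also differed before treatment. Between the DMSO groups of Farage and SUDHL6, 6 members were higher and 1, VEGFA, lower in Farage. Of all genes 33.8% were higher and 37.5% lower there (71.3% in either direction). Farage against SUDHL4 gave 4 higher and 3 lower members, against 36.0% and 31.1% of genes (67.1% in either direction), with BNIP3L, P4HA1 and VEGFA the lower ones. Called in either direction, the members were near the share of all genes in both of these comparisons. SUDHL6 against SUDHL4 gave 2 higher, VEGFA and ANKRD37, and 7 lower members, against 38.5% and 30.1% of genes (68.6% in either direction). BNIP3L was lower in SUDHL6 than in SUDHL4 (-1.45 ± 0.18, adjusted p = 2.23e-06), and KDM3A higher in Farage than in SUDHL6 (1.08 ± 0.16, adjusted p = 1.60e-05). P4HA1 and ANKRD37 did not pass between Farage and SUDHL6 (-0.09 with a 95% interval of -0.48 to 0.29, and -0.19 with one of -0.70 to 0.32), nor did BNIP3 and EGLN1 between Farage and SUDHL4 (0.16 with one of -0.19 to 0.52, and -0.06 with one of -0.30 to 0.19). Without DMSO replicate 3 of SUDHL4, several of these gaps moved: P4HA1 between Farage and SUDHL4 went from -0.51 to -0.20 and between SUDHL6 and SUDHL4 from -0.42 to -0.11, both then not called (adjusted p = 0.108 and 0.386), and the first of them was also lost without DMSO replicate 1 of Farage (adjusted p = 0.0526). KDM3A between SUDHL6 and SUDHL4 went from -0.48 to -0.24 (adjusted p = 0.104), and BNIP3 between Farage and SUDHL4 from 0.16 to 0.42 (adjusted p = 0.00648). BNIP3L between Farage and SUDHL4 went from -0.57 to -0.25 (adjusted p = 0.0262) and BNIP3 between SUDHL6 and SUDHL4 from -0.62 to -0.36 (adjusted p = 0.0181), both still called.

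**Figure D3:**
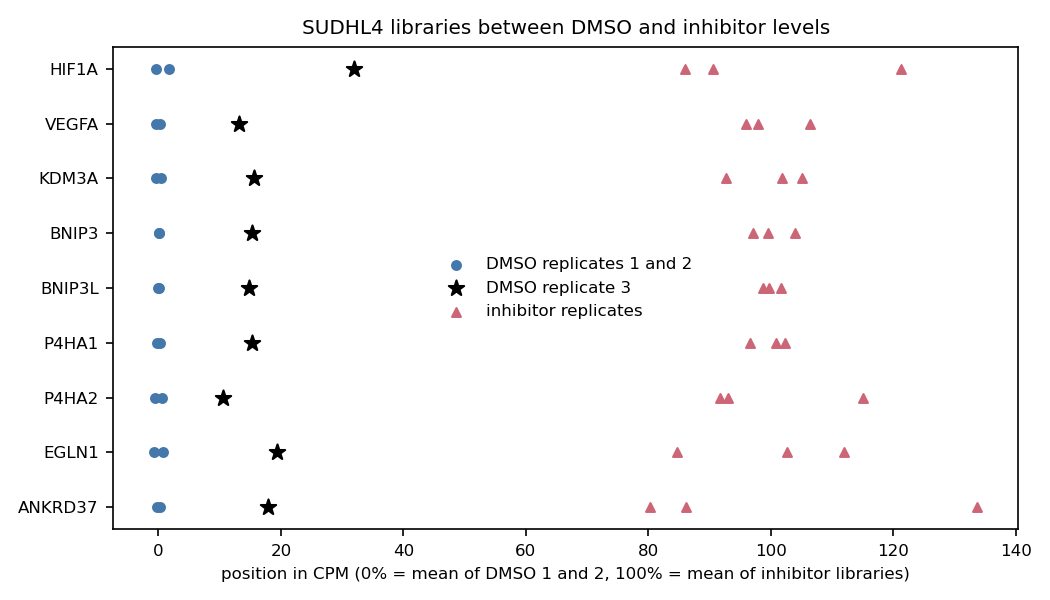
Position of each SUDHL4 library for the 9 tested members on a scale in CPM where 0% is the mean of DMSO replicates 1 and 2 and 100% the mean of the inhibitor libraries, with DMSO replicates 1 and 2 as blue circles, DMSO replicate 3 as black stars and inhibitor replicates as red triangles. DMSO replicate 3 lies at 10.5 to 31.8% for every member.

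DMSO replicate 3 of SUDHL4 lay between its partners and the treated libraries for each of the 9 tested members. In linear CPM it stood at 10.5% (P4HA2) to 31.8% (HIF1A) of the distance, with a median of 15.2%. On the log2 scale of the tests it lay further along for each of them. It held 2.28 times the VEGFA level of the mean of its partners, where the mean of the inhibitor libraries was 10.8 times that level. The same ratios were 1.97 and 7.56 for BNIP3L, 1.95 and 7.26 for P4HA1, and 1.09 and 1.28 for HIF1A. The members' median is near the 14.2% found over all genes that were at least 2-fold higher with the inhibitor. With this library left out, the SUDHL4 response of VEGFA was 3.38 in place of 2.99 and that of BNIP3L 2.91 in place of 2.58. Its origin was not tested.

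Other genes of the oxygen-sensing pathway were read from lists. Of the HIF subunits and partners, 5 besides HIF1A were tested and 5 rose in the mean response, where 30.1% of all genes rose and 53.8% fell. EPAS1, which encodes the related HIF-2 alpha subunit, went from 0.04 to 4.26 CPM (means of 3) in SUDHL6, from 0.80 to 19.5 CPM in Farage and from 0.02 to 0.83 CPM in SUDHL4. It rose by 2.21 ± 0.12 in the mean (adjusted p = 2.89e-11). With DMSO means below 1 CPM in every line, EPAS1 passed the expression filter only through its inhibitor libraries. Its p-value and its place among the 5 that rose are therefore descriptive and no independent support. Because its DMSO levels were near 0 in SUDHL6 and SUDHL4, the size of that rise depends on the pseudocount (3.37 with one of 0.25, and 5.55 in edgeR), and the lines are not ranked by it. ARNT, the partner that HIF1A needs to bind DNA, rose by 0.46 ± 0.05 (adjusted p = 2.76e-07), and the coactivator CREBBP by 1.52 ± 0.07 (adjusted p = 9.43e-12). EP300, the second coactivator of the pair, rose by 1.02 in SUDHL6 and 0.99 in both other lines (mean response adjusted p = 1.06e-11). HIF3A and ARNT2 were at or near 0 CPM and were not tested.

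Among oxygen sensing and turnover genes besides EGLN1, 10 were tested, and in the mean response 6 rose, 3 fell and 1 did not pass. HIF1AN, the asparagine hydroxylase that blocks HIF coactivator binding, rose by 0.90 ± 0.05 (adjusted p = 4.82e-11), and SIAH1, a ubiquitin ligase that acts on the hydroxylases, by 0.72 ± 0.08 (adjusted p = 3.63e-07). TCEB2 (elongin B), RBX1 and VHL, which are parts of the ligase that degrades HIF1A, fell by 0.80, 0.39 and 0.28 (adjusted p = 1.27e-08, 2.38e-07 and 8.19e-05), but VHL was not called in edgeR (-0.03, adjusted p = 0.579), in DESeq2 (-0.03, adjusted p = 0.485) or after median-of-ratios scaling (-0.04, adjusted p = 0.376). RBX1 was also smaller in edgeR (-0.14, adjusted p = 0.0104), in DESeq2 (-0.15, adjusted p = 0.00274) and after that scaling (-0.15, adjusted p = 0.00351). The list counted 7 higher and 2 lower after median-of-ratios scaling, where 39.4% of all genes were called higher and 44.4% lower. The other hydroxylases EGLN2 and EGLN3 stayed below 1 CPM and were not tested.

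Of 32 other non-glycolytic hypoxia-inducible genes, 24 were tested. In the mean response 19 rose and 3 fell, with a median of 0.69, where 30.1% of all genes were called higher and 53.8% lower. Under median-of-ratios scaling 21 rose and none fell, where the shares of all genes were 39.4% and 44.4%. In Farage 22 rose and none fell, in SUDHL4 15 rose and 1 fell, and in SUDHL6 12 rose and 4 fell, where the shares of all genes were 25.4% higher and 46.5% lower in Farage, 24.3% and 46.2% in SUDHL4, and 26.8% and 41.3% in SUDHL6. PPP1R15A, a phosphatase subunit also induced by other stresses, rose by 3.40 ± 0.25 (adjusted p = 1.81e-09), BHLHE40, a transcriptional repressor, by 2.06 ± 0.19 (adjusted p = 2.01e-08), and WSB1, part of a ubiquitin ligase, by 1.82 ± 0.10 (adjusted p = 3.62e-11). The 20 glycolytic hypoxia-inducible genes split by line, to be read against the same shares: 16 rose and 2 fell in Farage, and 12 rose and 3 fell in SUDHL4. In SUDHL6 4 rose and 9 fell, which is near the shares of all genes there. The medians of the 20 genes were 0.74 in Farage, 0.35 in SUDHL4 and -0.36 in SUDHL6, beside -0.22, -0.21 and -0.13 for all genes. The SUDHL6 response was smaller than the Farage response for 17 of the 20 and larger for 1, where 15.1% of all genes were smaller and 21.7% larger. Under median-of-ratios scaling 5 rose and 8 fell in SUDHL6, with a median of -0.19. Of all genes 33.1% were then called higher and 34.8% lower in that line, with a median of -0.0002. The glycolytic genes with the largest mean response were SLC16A3, a lactate exporter (1.22 ± 0.10, adjusted p = 4.91e-09), ALDOC, an aldolase (1.22 ± 0.09, adjusted p = 1.27e-09), and TPI1, triosephosphate isomerase (1.21 ± 0.08, adjusted p = 7.83e-10). ALDOC went from 129 to 302 CPM (means of 3) in Farage and from 96.3 to 479 CPM in SUDHL4, and was at 44.0 and 46.3 CPM in SUDHL6, where it did not pass (adjusted p = 0.680).

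**Figure D4:**
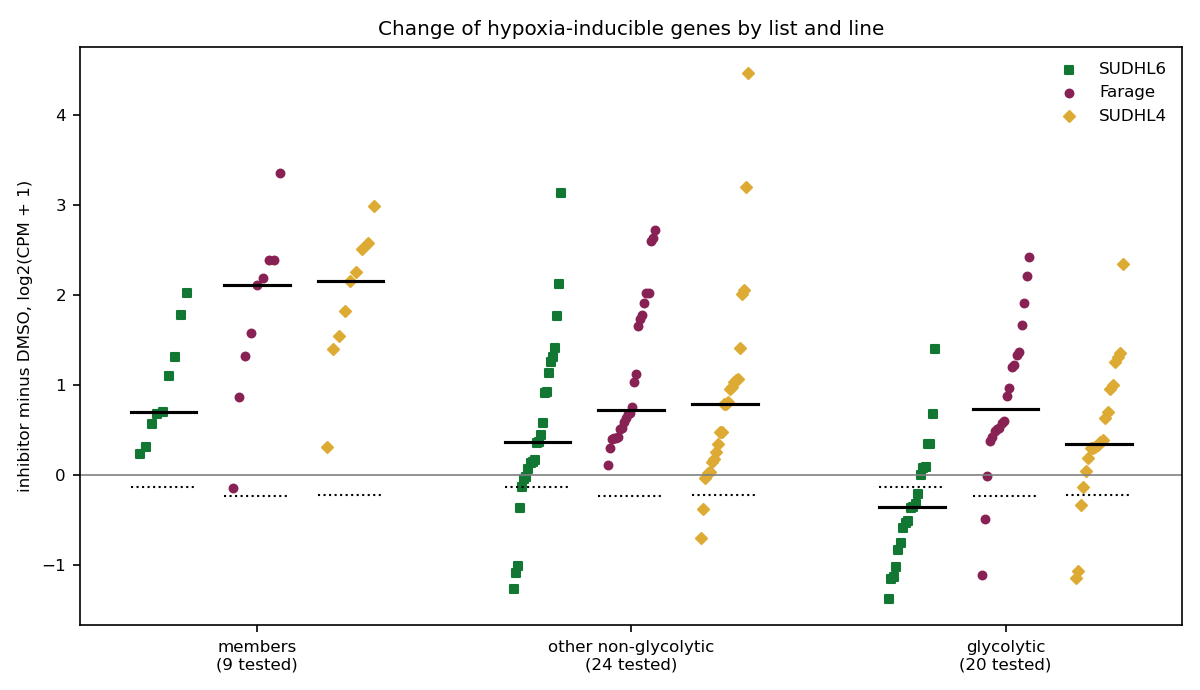
Inhibitor minus DMSO on the log2(CPM + 1) scale for the 9 tested members, 24 other non-glycolytic and 20 glycolytic hypoxia-inducible genes in SUDHL6 (green squares), Farage (purple circles) and SUDHL4 (yellow diamonds). Solid bars are the median of each list and dotted bars the median of all 12769 genes. The glycolytic median lies below 0 in SUDHL6 alone, and the all-gene median lies below 0 in every line.

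The genes whose pattern over the 6 groups was most like that of HIF1A were RHOC, REST and RAB12, with root mean square differences of 0.11, 0.15 and 0.17 on the centred log2 scale, where the median over 9568 genes with a mean of at least 5 CPM was 0.96. Those of HIF1A's fellow members ranged from 0.63 for EGLN1 and 0.87 for KDM3A, below that median, to 2.15 for P4HA2. For VEGFA the most like genes were ZFAND2A, TP53INP2 and NEU1, at 0.43, 0.44 and 0.47, with a median of 1.73 over the same genes. ZFAND2A, for example, went from 5.30 to 71.5 CPM in Farage and from 15.3 to 73.7 CPM in SUDHL6. These values describe 6 group means and carry no test.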

How the data were processed

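RNA-seq of 18 libraries was used, 3 per group of 6. The authors deposited CPM for 23250 gene symbols per library. The submitters' processing notes name STAR and hg19, and per the labels a TruSeq RNA kit was used and Rsubread served for expression ratios. Versions, annotation release and strand setting are not given in these sources. The deposited CPM were whole multiples of 1 read, and 100% of the recovered reads were whole to within 0.01. Listed genes made up 74.63 to 80.72% of the divisor.

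Testing used limma 3.58.1 (R 4.3.3), trend option on, with log2(CPM + 1), without further scaling, for genes with at least 1 CPM in at least 3 libraries. The model had 6 group means over all 18 libraries, and two-sided p-values were adjusted by Benjamini-Hochberg over 12769 genes, with a threshold of 0.05. Values after ± are the SE of the model for log2 changes and the SD of n = 3 for CPM. Promoter letters were read from RefSeq entries of GRCh38.p14. Alternatives were a pseudocount of 0.25, no filter, a mean of at least 5 CPM, median-of-ratios scaling, a replicate block, only the compared lines, edgeR 4.0.16 and DESeq2 1.42.0 on the recovered reads, each library left out, and SUDHL6 without replicate 3 of both groups. The procedures were tested on simulated data with the same dispersion in all genes and groups and no pairing. Those data do not cover the uneven replicate scatter found here. Replicate libraries differed by more than sampling noise, at 1.86 to 53.6 chi-square units per degree of freedom, and none was counted as a duplicate.

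Same-numbered SUDHL6 libraries deviated together (correlations of 0.425, 0.488 and 0.632), so numbers may pair samples there, judged from the data alone. In Farage (0.168, -0.128 and -0.189) and SUDHL4 (-0.054, 0.034 and -0.073) they did not. The main model held no pairing in any line, and the replicate block was only an alternative, applied to all lines alike. The members are always named. Other lists give at most 3 members, those called in the mean response with the largest change, and genes of the HIF subunit and oxygen sensing lists may all be named. The 3 genes most like HIF1A and VEGFA are the tested ones with the smallest difference of centred group means. The members and lists were chosen with earlier results of these data known.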

Additional observations from a re-analysis of the deposited data

Results flagged for a closer look

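The response to the inhibitor differed between lines for the following members, by the interaction in limma with Benjamini-Hochberg adjustment. All values are differences of log2 changes. SUDHL6 minus Farage was 0.85 for HIF1A (adjusted p = 5.56e-06), -1.57 for VEGFA (adjusted p = 0.00111), -2.16 for BNIP3 (adjusted p = 3.77e-06), -1.02 for BNIP3L (adjusted p = 0.00517), -1.82 for P4HA1 (adjusted p = 4.58e-05) and -0.65 for EGLN1 (adjusted p = 0.00488). SUDHL6 minus SUDHL4 was 0.39 for HIF1A (adjusted p = 0.00568), -1.21 for VEGFA (adjusted p = 0.00752), -2.03 for BNIP3 (adjusted p = 1.06e-05), -1.48 for BNIP3L (adjusted p = 0.000338), -1.95 for P4HA1 (adjusted p = 3.20e-05), -1.50 for P4HA2 (adjusted p = 0.000634) and -0.72 for EGLN1 (adjusted p = 0.00270). SUDHL4 minus Farage was 0.46 for HIF1A (adjusted p = 0.00135) and 0.95 for P4HA2 (adjusted p = 0.0136). HIF1A was the member with the larger response in SUDHL6, in contrast to the others named for that line. Against SUDHL4 its call was lost in edgeR (adjusted p = 0.118), in DESeq2 (adjusted p = 0.0824) and after median-of-ratios scaling (limma, adjusted p = 0.101).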

How the results depend on the processing

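The members' counts of calls for the mean response (9), SUDHL6 (7), Farage (8) and SUDHL4 (9) kept within 1.5 times of these values under each alternative, and the replicate block left 63 of 63 member values with the same direction and side of the threshold, with 9, 7, 8 and 9 calls. HIF1A in Farage turned to 0.098 (median-of-ratios), 0.095 (edgeR) and 0.11 (DESeq2), and P4HA1 between DMSO lines Farage and SUDHL6 to 0.011 (median-of-ratios) and 0.040 (without SUDHL6 replicate 3 of both groups), with no call in these settings. VEGFB in the mean response turned from -0.24 to 0.032 (edgeR) and 0.026 (DESeq2). With only the compared lines in the fit, the response of 4 members and of 7265 genes differed between SUDHL4 and Farage. Leaving out 1 library at a time gave 2 to 5 members for that comparison, and moved it from -0.57 to 0.030 for VEGFA, -0.26 to 0.13 for BNIP3, -0.046 to 0.44 for P4HA1 and -0.017 to 0.22 for EGLN1. It moved SUDHL6 minus SUDHL4 from -0.38 to 0.0048 for KDM3A and -0.56 to 0.028 for ANKRD37. Between DMSO lines it moved P4HA1 in Farage minus SUDHL6 from -0.18 to 0.040, and EGLN1 in Farage minus SUDHL4 from -0.14 to 0.098. The call of P4HA1 between SUDHL6 and SUDHL4 with DMSO (adjusted p = 0.0491) was lost without the filter (adjusted p = 0.0760), with only the compared lines (adjusted p = 0.116) and in most fits that left out 1 library. The cause of these shifts was not tested. Members at a few CPM or below (ADM, P4HA2 in SUDHL6) are limited by depth.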

Other observations

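Relatives of the members, taken from lists of their families, moved in both directions in the mean response of the 3 lines, in which 30.1% of all tested genes were called higher and 53.8% lower. Among 10 tested mitophagy genes besides BNIP3 and BNIP3L, 5 rose and 3 fell. SQSTM1, an autophagy receptor, rose by 3.75 ± 0.20 (limma, adjusted p = 2.89e-11) and CALCOCO2, another receptor, by 1.16 ± 0.07 (adjusted p = 1.96e-10), while PHB2, a prohibitin of the inner mitochondrial membrane, fell by 0.73 ± 0.05 (adjusted p = 2.67e-10). Of 13 tested genes of the JmjC family besides KDM3A, 11 rose and 1 fell, with JMJD6 (2.30 ± 0.09, adjusted p = 9.38e-13), KDM6A (1.64 ± 0.06, adjusted p = 5.78e-13) and JMJD1C (1.15 ± 0.09, adjusted p = 2.60e-09) the largest rises. Of 6 collagen-modifying genes besides P4HA1 and P4HA2, 3 rose and 2 fell. PLOD1 and PLOD3, lysyl hydroxylases of collagen, rose by 1.54 ± 0.07 and 1.10 ± 0.08 (adjusted p = 6.52e-12 and 1.26e-09), and CRTAP, part of a collagen prolyl 3-hydroxylase complex, fell by 1.33 ± 0.09 (adjusted p = 1.08e-09).

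Of the VEGF ligands and receptors besides VEGFA, only 3 were tested and none rose, beside 53.8% of all genes called lower. NRP2, a coreceptor, fell by 1.62 ± 0.08 (adjusted p = 1.35e-11) and PGF by 0.30 ± 0.07 (adjusted p = 0.000853). The PGF change lay near the all-gene median of -0.24. Its size depended on the setting: -0.21 after median-of-ratios scaling (limma, adjusted p = 0.0159), -0.66 with a pseudocount of 0.25 and -1.12 in edgeR. VEGFB was at -0.24 ± 0.10 (adjusted p = 0.0415), and its call was lost under median-of-ratios scaling and its sign turned in edgeR and DESeq2. ADM2, a peptide related to ADM, rose by 1.90 ± 0.15 (adjusted p = 2.74e-09).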
